A study of Homo sapiens with 12 samples.

Results

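E2F1 was enriched over IgG at 1742 of the 214407 regions listed for hTERT-RPE1 cells (0.812% of the list), and 555 of these regions (0.259% of the list) had no enriched E2F1 region over them in U2OS cells. These 555 regions were selected by a rule on the deposited counts. A region needed at least 30 ChIP sequences and a ratio of at least 3 in hTERT-RPE1 cells, where the ratio divides the ChIP count by the IgG count after 1 is added to each, and it had to overlap by no base a U2OS E2F1 region with a ratio of at least 2. The 555 regions made up 31.9% (95% Wilson interval 29.7 to 34.1%) of the enriched regions of hTERT-RPE1 cells. The other 1187 are called enriched in both lines, although the U2OS region needed a ratio of 2 and no minimum count. The U2OS ChIP counts at these 1187 started at 8, with a median of 36. Since the rule was applied to the E2F1 counts of both lines, the E2F1 counts and ratios of the 555 regions describe how they were chosen and carry no test.

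The 8 region lists came from ChIP-Seq with antibodies against E2F1, NPAT, CASP8AP2 and HINFP in 2 human cell lines. The U2OS cells derive from an osteosarcoma, and hTERT-RPE1 cells are non-tumor retinal pigment epithelial cells made immortal by telomerase. Each precipitation used 5 µg of antibody on chromatin fixed with 1% formaldehyde and sheared to 200 to 400 bp. The hTERT-RPE1 cells carry the telomerase transgene of their name and were grown with hygromycin B in a different medium from U2OS cells, so that culture differed with the line. The labels name no further treatment. Normal rabbit IgG was the control for E2F1, NPAT and CASP8AP2, and normal goat IgG was the control for HINFP, with a separate IgG library of each kind in each line. With 1 library per factor and line, no difference between the lines had a replicate check, and line, culture and library cannot be told apart. Intervals cover the counting error of sequences or regions and nothing else.

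E2F1 is a transcription factor that binds DNA as a dimer with a DP protein and is held inactive by the retinoblastoma protein until cyclin-dependent kinases phosphorylate the latter. Its known targets act in DNA replication, nucleotide synthesis and cell cycle entry. NPAT is a cyclin E-Cdk2 substrate that activates replication-dependent histone genes, CASP8AP2 (FLASH) resides with it in histone locus bodies and acts in histone pre-mRNA processing, and HINFP is a zinc finger factor of histone H4 promoters. Regions are given by their NCBI36 positions alone, because no gene annotation or sequence of that build was used here.

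The hTERT-RPE1-only regions were weak within the enriched class. Their ChIP count ran from 30 to 139 with a median of 37, against a median of 50 at regions enriched in both lines and of 11 over the whole hTERT-RPE1 list. Of the 555 regions, 190 (34.2%) had 30 to 34 ChIP sequences and so lay at the limit, while 159 of the 1187 both-line regions (13.4%) did. At least 50 sequences were found at 94 hTERT-RPE1-only regions (16.9%) and at 608 both-line regions (51.2%). In hTERT-RPE1 cells, 250 of the 555 regions (45.05%) met the authors' threshold of a p-value below 1e-05 and a fold change above 2. It was met at 874 of the 1187 both-line regions (73.6%) and at 1516 regions of the whole list. The remaining hTERT-RPE1-only regions are thus not significant peaks by that threshold.

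Summit height, the number of sequences piled up at the highest base, had a median of 20 at hTERT-RPE1-only regions, 29 at both-line regions and 9 over the whole list. The rabbit IgG count had a median of 9, with a range of 2 to 34, and was 11 at both-line regions. The ratio ran from 3 to 14 around a median of 3.88 (order-statistic interval 3.68 to 4), against 4.44 at both-line regions. Both counts thus had lower medians than at both-line regions. The ratio limit caps the IgG count of a region by its ChIP count, so the lower IgG median follows in part from the rule.

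Length did not set the classes apart in the same way. Regions of the hTERT-RPE1-only class were 327 to 1771 bp long with a median of 729 bp, and both-line regions had a median of 730 bp, while the median over the whole list was 290 bp. Summit height per ChIP sequence, a measure of how far the sequences gather at one base, had a median of 0.512 at hTERT-RPE1-only regions, 0.590 at both-line regions and 0.833 over the list, where short regions of few sequences dominate.

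The region with the most ChIP sequences was chr3:161649856-161650880, with 139 ChIP and 22 IgG sequences, a ratio of 6.09 and a summit height of 99. It had no listed E2F1 region in U2OS cells. The next was chr4:17421312-17421947, with 125 ChIP and 34 IgG sequences in hTERT-RPE1 cells and 47 ChIP and 27 IgG sequences in U2OS cells. This second region passed the rule with a U2OS ratio of 1.71 although its summits in the 2 lines lay 45 bp apart.

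Of the other 6 regions with the most ChIP sequences, chr10:43211929-43213077 (98 ChIP and 21 IgG sequences) and chr13:109237044-109237994 (75 ChIP and 8 IgG sequences) had no listed U2OS region. The region chr1:36326559-36327363 held 73 ChIP and 7 IgG sequences in hTERT-RPE1 cells and 23 ChIP and 18 IgG sequences in U2OS cells, so its ratio was 9.25 in one line and 1.26 in the other. The remaining 3, chr10:121622132-121622835, chr2:190356811-190358065 and chr7:72609119-72610194, had U2OS ratios of 1.82, 1.92 and 1.97. The strongest hTERT-RPE1-only regions thus included both sites with no U2OS counterpart and sites whose U2OS ratio fell just short of 2.

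The highest ratio of the class, 14, belonged to chr11:9342284-9342944 with 41 ChIP and 2 IgG sequences, where U2OS cells had 15 ChIP and 9 IgG sequences. The next was chr6:27913895-27914264, with 37 ChIP and 2 IgG sequences in hTERT-RPE1 cells and 9 ChIP and 7 IgG sequences in U2OS cells. Ratios of 11.8 were reached at chr4:114131-114899 and chr14:76492402-76493027, each with 58 ChIP and 4 IgG sequences. The 8 highest ratios rested on IgG counts of 2 to 4, and all of them fell at regions with fewer than 60 ChIP sequences.

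The limits cut through a continuous range of values, as the plot of both ratios shows. Just inside the ratio limit, 27 regions tied at a ratio of 3, with 32 to 62 ChIP and 10 to 20 IgG sequences. The 5 just outside it had ratios of 2.94 to 2.96, with 52 to 67 ChIP and 17 to 22 IgG sequences. At the U2OS limit, the 3 regions just inside had U2OS ratios of 1.96 to 1.97 on 48 to 60 ChIP sequences, and just outside it 37 both-line regions tied at a U2OS ratio of 2 on 9 to 65.

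**Figure D1:**
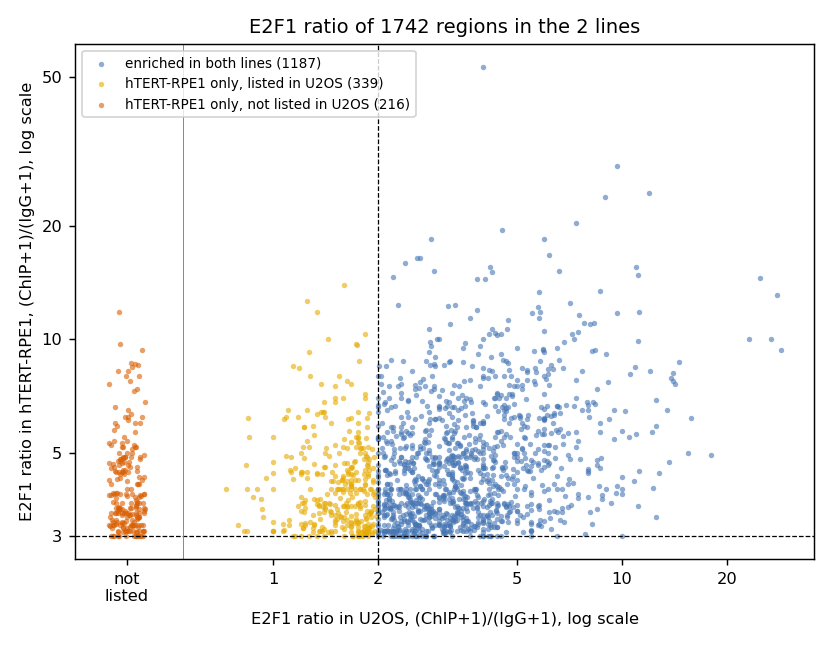
Each point is 1 of the 1742 enriched E2F1 regions of hTERT-RPE1 cells, with its E2F1 ratio in U2OS cells on the x axis and in hTERT-RPE1 cells on the y axis (both log scales), dashed lines at the limits of 2 and 3, and regions with no listed U2OS region in a strip at the left. The 339 hTERT-RPE1-only regions with a listed U2OS region crowd against the limit of 2, and the strip holds 216.

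The 555 regions fell into 2 kinds by what U2OS cells showed at them. A U2OS E2F1 region was listed over 339 (61.1%, 57.0 to 65.0%), always with a ratio under 2 by the rule, and none was listed over 216 (38.9%, 35.0 to 43.0%). The U2OS list holds regions with a summit height of at least 8, so the latter had at most 7 sequences piled up at any base. Of these 216 regions, 140 (64.8%) had a summit height of at least 16 in hTERT-RPE1 cells. The first quartile of height was already 17 at the 339 and 22 at both-line regions, while the third quartile was 10 over the whole list. The median height of the 216 there was 18, against 21 at the 339, 29 at both-line regions and 9 over the whole list. Height follows in part from the limit of 30 ChIP sequences in hTERT-RPE1 cells. Total reads per library are unknown, so heights were not compared between the lines.

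At the 339 listed regions, U2OS cells had a median of 21 ChIP and 13 IgG sequences and a ratio of 1.59 (range 0.733 to 1.97), and 205 of them had a ratio of at least 1.5. The U2OS ratio was under 1 at 14 (4.13%), where 3.89% of all hTERT-RPE1 regions with at least 30 ChIP sequences and a listed U2OS region had a ratio over 1 in hTERT-RPE1 cells and under 1 in U2OS cells. At both-line regions the U2OS medians were 36 ChIP and 10 IgG sequences. Fewer ChIP sequences were counted in U2OS than in hTERT-RPE1 cells at 309 of the 339 regions (91.2%), against 904 of 1187 both-line regions (76.2%). More IgG sequences were counted in U2OS than in hTERT-RPE1 cells at 249 of the 339 (73.5%), against 488 of 1187 (41.1%). Both parts of the U2OS ratio, the numerator and the denominator, therefore differed from the both-line class, which follows in part from a rule that selects low U2OS ratios.

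**Figure D2:**
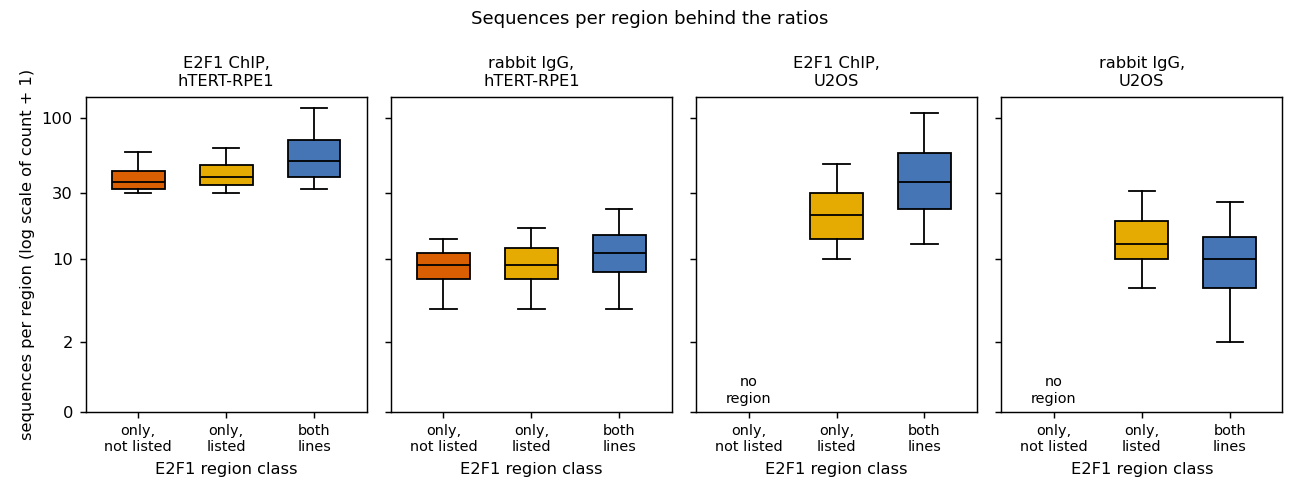
Boxes show quartiles and whiskers the 5 and 95% points of sequences per region (log scale of the count plus 1) for E2F1 ChIP and rabbit IgG in each line, by class of E2F1 region. The listed hTERT-RPE1-only regions had lower U2OS ChIP counts (median 21) and higher U2OS IgG counts (median 13) than both-line regions (36 and 10), and regions without a U2OS list entry have no U2OS counts.

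Counting error was wide at these depths. An exact 95% interval of the ChIP to IgG count ratio was computed for each region in each line. The hTERT-RPE1 interval lay wholly above the U2OS interval at 37 of the 339 listed regions (10.9%), against 1.8% of the 3396 hTERT-RPE1 regions with at least 30 ChIP sequences and a listed U2OS region, and the intervals overlapped at the other 302. When each interval was divided by the depth of its ChIP library over its IgG library, 20 of the 339 remained apart. The rule selected on the same counts, so these numbers say how many regions the depth could separate and not how many differ.

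The lower limit of the interval was over 2 in hTERT-RPE1 cells at 288 of the 555 regions (51.9%), against 876 of the 1187 both-line regions (73.8%), and in U2OS cells its upper limit was under 2 at 14 of the 339 and under 3 at 122. For most listed regions, a U2OS ratio of 2 was thus within counting error.

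The regions whose intervals lay farthest apart were picked after their values had been seen. At chr14:76492402-76493027 the interval was 5.37 to 55 in hTERT-RPE1 cells and 0.787 to 2.33 in U2OS cells, where 35 ChIP sequences faced 26 IgG sequences. At chr1:36326559-36327363 it was 4.81 to 26.9 against 0.660 to 2.51. At chr3:185911980-185912696, 41 ChIP and 4 IgG sequences in hTERT-RPE1 cells stood against 31 and 26 in U2OS cells. In all 3 the U2OS IgG count was higher than the hTERT-RPE1 IgG count.

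Summit positions were not a value of the rule, but they come from the same E2F1 sequences that the rule counted. The comparison is therefore not independent of the selection. At the 339 listed regions the E2F1 summits of the 2 lines lay a median of 60 bp apart (order-statistic interval 52 to 73), and at both-line regions a median of 36 bp (32 to 38). Summits lay within 50 bp of each other at 148 of 339 (43.7%, 38.5 to 49.0%) and at 734 of 1187 (61.8%, 59.0 to 64.6%), and these intervals did not overlap. The listed regions had fewer sequences in both lines, and the part of the sequence number in the distance was not tested.

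Some hTERT-RPE1-only regions had an enriched U2OS E2F1 region close by. The nearest one, counted at a ratio of at least 2, lay a median of 12734 bp away (10662 to 14814), against 15411 bp over the 205010 listed hTERT-RPE1 regions that no enriched U2OS region overlapped. It was within 500 bp at 39 of the 555 regions (7.03%, 5.18 to 9.46%), within 1000 bp at 71 (12.8%) and within 5000 bp at 172 (31%, 27.3 to 35.0%). Over the listed regions the shares were 3.42%, 6.38% and 23.6%. The hTERT-RPE1-only regions are longer than most listed regions, and the part of the length was not tested. The closest gap was 19 bp.

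The mirrored rule gave fewer regions in U2OS cells. Of 125446 listed U2OS regions, 841 (0.67%) passed the count and ratio limits and 86 (0.0686%) had no hTERT-RPE1 region with a ratio of at least 2 over them. This was 10.2% (8.36 to 12.5%) of the enriched U2OS regions, against 31.9% in hTERT-RPE1 cells. The hTERT-RPE1 list held more regions, and the E2F1 library had 1.06 times the depth of its IgG library in hTERT-RPE1 cells and 0.942 times in U2OS cells. The part of these differences in the 2 counts was not tested.

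The other factors were measured in separate precipitations, although NPAT and CASP8AP2 share the rabbit IgG library of their line with E2F1. In hTERT-RPE1 cells, NPAT reached a ratio of at least 2 at 153 of the 555 regions (27.6%, 24.0 to 31.4%), against 24.6% of both-line regions and 7.27% of all listed E2F1 regions. CASP8AP2 did so at 115 (20.7%, 17.6 to 24.3%), against 15.8% and 4.55%. HINFP, with the goat IgG as its control, did so at 47 (8.47%, 6.43 to 11.1%), against 8% and 2.16%. At this limit of 2, the interval of each share overlapped that of both-line regions, for CASP8AP2 (13.8 to 17.9% there) by little. Each share was more than 3 times that of the whole list, whose regions are shorter. At a ratio of at least 3, CASP8AP2 was at 10.1% (7.85 to 12.9%) against 6.15% (4.92 to 7.66%) of both-line regions. These intervals were apart, and those of NPAT and HINFP overlapped. NPAT and CASP8AP2 were both at a ratio of at least 2 at 9.55% (7.4 to 12.3%) against 5.64% (4.47 to 7.11%), with intervals apart. Where CASP8AP2 was listed, the 2 classes had the same ChIP median, 13, and IgG medians of 6 against 7. For NPAT the ChIP medians were 13 against 14 and the IgG medians 6 against 7. The rule used this same rabbit IgG library, so the NPAT and CASP8AP2 shares describe the selection in part and carry no test.

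In U2OS cells the shares split by factor. NPAT reached a ratio of at least 2 at 104 hTERT-RPE1-only regions (18.7%, 15.7 to 22.2%), against 32.4% (29.7 to 35.1%) of both-line regions and 10.7% of all listed E2F1 regions. CASP8AP2 did so at 91 (16.4%, 13.6 to 19.7%), against 33.0% (30.4 to 35.7%) and 6.3%. HINFP did so at 45 (8.11%, 6.12 to 10.7%), against 9.18% (7.67 to 11%) and 1.27%. The intervals of the 2 classes were apart for NPAT and CASP8AP2 and overlapped for HINFP.

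The rabbit IgG count bears on these U2OS ratios. Where a U2OS NPAT region was listed, its ChIP count had a median of 15 at hTERT-RPE1-only regions and 16 at both-line regions, and its IgG count had a median of 10 and 8. For CASP8AP2 the ChIP medians were 16 and 17 and the IgG medians 11 and 9. These medians were carried by the 339 regions with a U2OS E2F1 entry, where the IgG medians were 11 for NPAT and 13 for CASP8AP2. At the 216 without one, the IgG median was 6 for both factors, below that of both-line regions, the ChIP medians were 12 and 13.5 and the median ratios 2.06 and 2. A U2OS NPAT region was listed at 33.3% of the 216, 67.3% of the 339 and 64.3% of both-line regions. For CASP8AP2 these shares were 28.7%, 69.0% and 65.6%. The medians of the 216 thus rest on the smaller part of them that was listed. The part of the IgG count and of the listing in the shares was not tested.

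**Figure D3:**
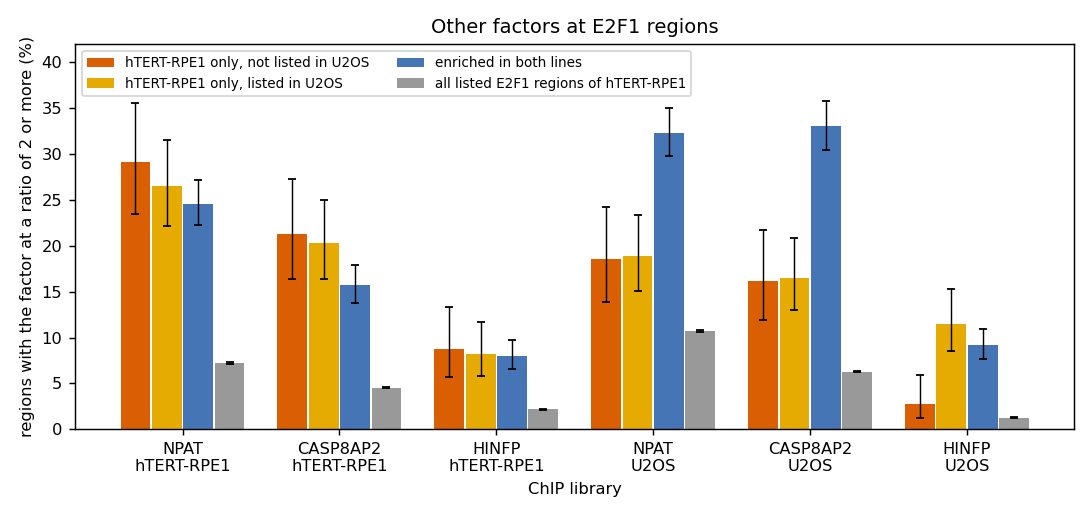
Bars give the share of E2F1 regions (%) that overlap a region of the named library with a ratio of at least 2, by class of E2F1 region, with 95% Wilson intervals. In U2OS cells NPAT and CASP8AP2 were at 18.5% and 16.2% of the hTERT-RPE1-only regions not listed in U2OS and at 32.4% and 33.0% of both-line regions, and HINFP was at 2.78% of the former.

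The overlap with other factors was mostly weak. Where NPAT was listed at an hTERT-RPE1-only region in hTERT-RPE1 cells, its median count was 13 ChIP against 6 IgG sequences, and the NPAT summit lay a median of 182 bp from the E2F1 summit. NPAT had at least 30 ChIP sequences and a ratio of at least 3 at 13 of the 555 regions (2.34%), close to the 2.19% of both-line regions. CASP8AP2 and HINFP each did at 3 (0.541%), against 0.337% and 0.253% of both-line regions. In hTERT-RPE1 cells 312 of the 555 regions (56.2%, 52.1 to 60.3%) had none of the 3 factors at a ratio of 2, against 61.0% (58.2 to 63.7%) of both-line regions. In U2OS cells 355 (64.0%, 59.9 to 67.8%) had none, against 45.8% (43.0 to 48.7%).

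A single region stood out by NPAT. At chr6:27913895-27914264, on the short arm of the chromosome that carries the largest human histone gene cluster, NPAT had 94 ChIP and 6 IgG sequences in hTERT-RPE1 cells (ratio 13.6) and 71 and 20 in U2OS cells (ratio 3.43). E2F1 had 37 ChIP and 2 IgG sequences there in hTERT-RPE1 cells and 9 and 7 in U2OS cells, with summits 2 bp apart. CASP8AP2 had 17 ChIP and 5 IgG sequences in hTERT-RPE1 cells and 11 and 6 in U2OS cells. NPAT was thus above IgG in both lines at a site where E2F1 met the limit in hTERT-RPE1 cells alone.

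The other high NPAT ratios of hTERT-RPE1 cells rested on few sequences, 13 ChIP and 0 IgG at chr17:2041938-2042786 and 10 and 0 at chr1:67168002-67168881. The region with the highest E2F1 ratio, chr11:9342284-9342944, also had HINFP with 10 ChIP and 0 IgG sequences and NPAT with 19 and 2 in hTERT-RPE1 cells. At chr4:114131-114899, CASP8AP2 had 14 ChIP and 1 IgG sequences and NPAT 15 and 2, and no U2OS list held a region of these factors there. The HINFP region with the most sequences among the named ones was at chr2:218843140-218843620, with 48 ChIP and 21 IgG sequences in hTERT-RPE1 cells and 82 and 10 in U2OS cells. HINFP was there more enriched in U2OS cells, with a ratio of 7.55 against 2.23, while E2F1 had ratios of 1.53 in U2OS and 3.55 in hTERT-RPE1 cells.

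The 216 regions without a U2OS E2F1 entry also differed from the 339 in how often the other U2OS lists covered them. A NPAT or CASP8AP2 region of U2OS cells, at any ratio, overlapped 103 of them (47.7%, 41.1 to 54.3%), against 289 of the 339 listed regions (85.3%, 81.1 to 88.6%) and 971 of the 1187 both-line regions (81.8%, 79.5 to 83.9%). The rabbit IgG count in those NPAT or CASP8AP2 regions had a median of 6 at the 216, 11 at the 339 and 8 at both-line regions. HINFP reached a ratio of 2 in U2OS cells at 6 of the 216 (2.78%, 1.28 to 5.93%) and at 39 of the 339 (11.5%, 8.53 to 15.3%), whereas in hTERT-RPE1 cells it did so at 8.80% and 8.26%. At any ratio a HINFP region of U2OS cells was listed at 6.02% of the 216 and 23.3% of the 339, so the 216 were listed less often in each of the other U2OS libraries. At a ratio of at least 2 the shares of the 216 and the 339 were close for NPAT (18.5% and 18.9%) and CASP8AP2 (16.2% and 16.5%), with overlapping intervals. At a ratio of at least 3 the 216 had the higher shares, 10.2% (6.82 to 14.9%) against 4.13% (2.48 to 6.81%) for NPAT and 7.87% (4.97 to 12.2%) against 2.65% (1.40 to 4.97%) for CASP8AP2. The rule kept the 339 for a low U2OS E2F1 ratio over the same rabbit IgG library, and set no such limit on the 216. The NPAT and CASP8AP2 ratios of the 2 kinds therefore describe the selection in part and carry no test.

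The chromosome stretches around the 216 also held fewer listed U2OS regions. NPAT regions of any ratio were counted within 500 kb on either side of each E2F1 summit, a 1 Mb window. In the U2OS list the median was 111.5 NPAT regions around the 216 (102 to 133), 208 around the 339 (196 to 223) and 191 around both-line regions (186 to 197). In the hTERT-RPE1 list it was 124, 126 and 123. The ratio of U2OS to hTERT-RPE1 NPAT regions had a median of 0.816 (0.754 to 0.884) around the 216, 1.63 around the 339 and 1.55 around both-line regions. The whole NPAT lists held 478015 regions in U2OS and 299405 in hTERT-RPE1 cells. More U2OS than hTERT-RPE1 regions was therefore the state of the lists as a whole, and not particular to the 339 or the both-line regions.

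Counts of CASP8AP2 regions gave the same order. The U2OS medians were 53.5, 119 and 103 for the 216, the 339 and the both-line regions, and the hTERT-RPE1 medians were 72, 74 and 77. The whole CASP8AP2 lists held 250372 regions in U2OS and 164571 in hTERT-RPE1 cells. The interval of the U2OS median around the 216 (48 to 63) lay below those around the 339 (108 to 128) and the both-line regions (99 to 109), and the latter intervals overlapped for both factors.

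When all 1742 enriched regions were put in order of the NPAT window ratio and divided into 4 sets of equal size, regions without a U2OS entry made up 28.4% (24.4 to 32.8%) of the set with the lowest ratio, then 9.43%, 7.13% and 4.59% (2.99 to 6.98%) of the set with the highest. The listed kind went the other way, from 13.1% (10.2 to 16.6%) to 18.2%, 22.5% and 24.1% (20.3 to 28.3%). Of the 216 regions without a U2OS entry, 124 lay in the lowest set. The part of the window ratio in these shares was not tested.

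**Figure D4:**
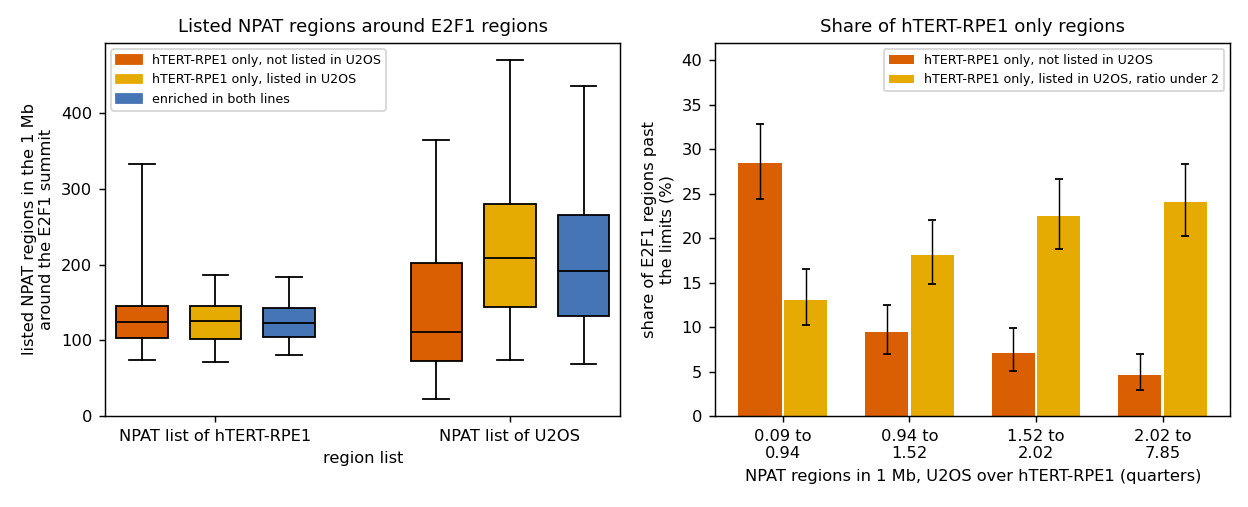
Left, listed NPAT regions in the 1 Mb around each E2F1 summit, by list and class (boxes show quartiles, whiskers the 5 and 95% points). Right, the share of the 1742 enriched E2F1 regions (%) that were hTERT-RPE1-only, by set of the U2OS to hTERT-RPE1 ratio of NPAT regions in the window, with 95% Wilson intervals. The share without a U2OS entry fell from 28.4% to 4.59% across the 4 sets and the listed share rose from 13.1% to 24.1%.

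The hTERT-RPE1-only regions were spread over the 22 autosomes and the X chromosome. Chromosome 1 held the most, 53 (9.55%), followed by chromosome 19 with 40 and chromosome 10 with 39. As a share of the enriched regions of a chromosome they ran from 19.2% (12.7 to 28.0%) on chromosome 12 to 44.8% (34.8 to 55.3%) on chromosome 10. These chromosomes were picked as the lowest and highest of all after the values were seen, so the gap between their intervals carries no test.

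The kind of region differed between chromosomes. Regions without a U2OS entry made up all 7 hTERT-RPE1-only regions of the X chromosome, all 4 of chromosome 21, 6 of 8 on chromosome 18 and 26 of 39 on chromosome 10, but 13 of 53 on chromosome 1 and 2 of 17 on chromosome 20. Chromosome 10 held 10.1% of all listed E2F1 regions of hTERT-RPE1 cells and 5.21% of those of U2OS cells, and its ratio of U2OS to hTERT-RPE1 NPAT regions was 0.988. The X chromosome held 2.88% of the hTERT-RPE1 E2F1 list and 0.340% of the U2OS list. The X chromosome (0.396), chromosome 13 (0.752) and chromosome 10 had the lowest NPAT ratios, while chromosomes 18 and 21 had 1.75 and 1.34.

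Over the 23 chromosomes, which share the same libraries, the share of enriched regions without a U2OS entry and the NPAT ratio had a Pearson correlation of -0.66 and a Spearman correlation of -0.60, given as a description. For all hTERT-RPE1-only regions the values were -0.30 and -0.23. The value was thus larger in size for the regions without a U2OS entry than for the class as a whole.

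**Figure D5:**
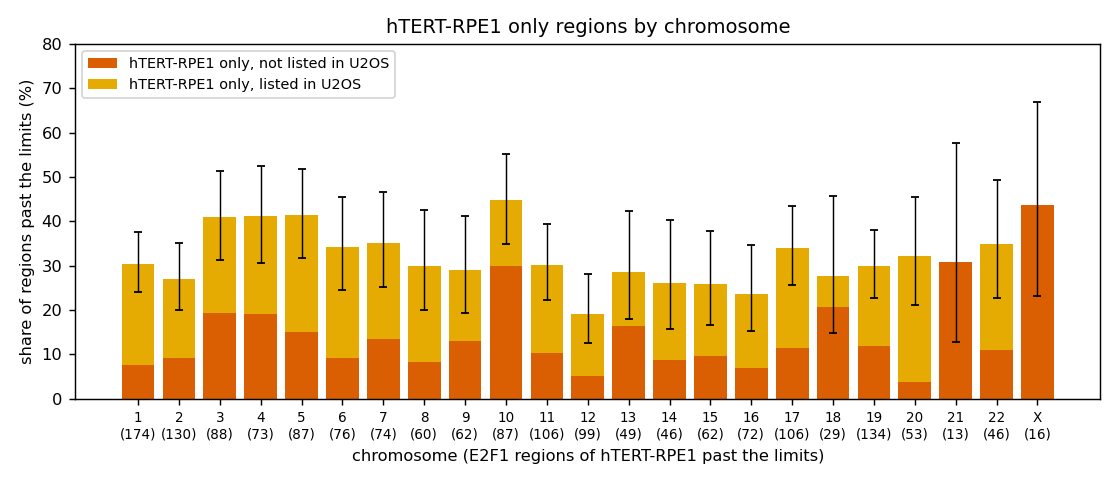
Share of the enriched E2F1 regions of hTERT-RPE1 cells (%) that were hTERT-RPE1-only on each chromosome, split by whether a U2OS E2F1 region was listed, with 95% Wilson intervals of the whole bar and the number of enriched regions in brackets. Chromosome 10 had the highest autosomal share, 44.8%, mostly without a U2OS entry, and chromosome 12 the lowest, 19.2%.

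Regions of the hTERT-RPE1-only class whose neighboring summits lay at most 1 Mb apart were joined into clusters. Of the 555, 288 lay more than 1 Mb from the next region of the class. The same spacing was not counted for both-line regions, so it is not given as a trait of the class. The largest cluster had 7 regions within chr10:104199956-105982645, with 30 to 53 ChIP sequences, ratios of 3.08 to 4.43 and 3 regions without a U2OS entry, and it held 1 both-line region. Clusters of 6 lay within chr19:1156108-2280441, beside 7 both-line regions, and within chr22:39036022-40797047, beside 4. Both-line regions were thus fewer than hTERT-RPE1-only regions in the clusters on chromosomes 10 and 22 and more numerous in that on chromosome 19. Clusters were formed from and ranked by hTERT-RPE1-only regions, which favors these in the comparison, so it carries no test.

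The regions with the most IgG sequences were chr4:17421312-17421947 with 34 and chr2:190356811-190358065 with 26, and both had a listed U2OS region, with ratios of 1.71 and 1.92. The next count, 22, was shared by chr3:161649856-161650880, chr7:72609119-72610194 and chr17:26182782-26183601. The 3 longest were chr10:129595028-129596798 with 1771 bp, chr2:235068587-235069972 with 1386 bp and chr22:21892333-21893649 with 1317 bp, and none had a U2OS entry. Their summit heights were 23, 11 and 10 on 69, 45 and 40 ChIP sequences, against a class median height of 20. Those on chromosomes 2 and 22 were thus broad and low, and that on chromosome 10 was broad only.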

How the data were processed

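ChIP-Seq with 4 antibodies in U2OS and hTERT-RPE1 cells gave 8 region lists, 1 library each, and rabbit and goat IgG libraries entered through the IgG counts of the lists. The authors mapped reads to NCBI36 (hg18) per the labels, and the aligner, the peak caller and the handling of duplicates are not given in the sources used here. The deposited counts of ChIP and IgG sequences per region are whole numbers without normalization. The height deposited by the authors is the signal, in sequences, at the summit, and was at least 8 in every list. The fold change the authors deposited is a ratio of the counts plus 1 times a constant of the library, which gave the depth over IgG. The authors' p-value was used only for the threshold of the methods, in a count by class and as an alternative rule. That threshold was a p-value below 1e-05 and a fold change above 2. The methods print the first sign as above, read here as below since it defines significant peaks. Total reads per library are unknown, and with 1 library per group no test between groups was made.

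Overlap was 1 bp or more, and where several regions overlapped, the one with the highest ratio was taken. The 3 hTERT-RPE1 E2F1 regions with 0 ChIP sequences were left out of medians over the list. Count ratios have exact (Clopper-Pearson) and shares 95% Wilson intervals. The overlap and interval code was tested on simulated data. Alternatives were other count, ratio, overlap and distance limits, depth scaling and, added after the data were seen, other windows. Regions were named by a rule: the 8 with the most ChIP sequences, the 8 with the highest ratio, those nearest the limits, the 3 highest of each other factor, the 3 with the most IgG sequences, the 3 longest and the 3 largest clusters. A cluster joined regions whose neighboring summits lay at most 1 Mb apart, so it could span more than 1 Mb. The regions, lists and rules were chosen with earlier results of these data known. No genome or annotation of NCBI36 was used here, so no gene names, motifs or sequences are given. The work was done in Python 3.11.15 with pandas 2.3.3 and numpy 2.4.6, intervals were made with scipy 1.17.1, and plots with matplotlib 3.10.9.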

Additional observations from a re-analysis of the deposited data

Results flagged for a closer look

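At 14 of the 339 hTERT-RPE1-only regions with a listed U2OS region, the E2F1 ChIP count was above the IgG count in hTERT-RPE1 cells and below it in U2OS cells, so the point values had opposite signs in the 2 lines. This was 4.13% of the listed regions, against 3.89% of the 3396 hTERT-RPE1 regions with at least 30 ChIP sequences and a listed U2OS region, and the rule itself selected for low U2OS ratios. The difference between the lines was not tested, since each had 1 library. The lowest U2OS ratio was 0.733, at chr3:128873978-128874446 with 10 ChIP and 14 IgG sequences (counting interval 0.284 to 1.73), where hTERT-RPE1 cells had 31 and 7. The highest was 0.952, at chr14:38713783-38714915 with 19 and 20 sequences, where hTERT-RPE1 cells had 63 and 14. The U2OS counting intervals of all 14 regions held 1, so an opposite effect was not shown at any of them.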

How the results depend on the processing

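No paired analysis was possible because each factor had 1 library per line. The number and share of hTERT-RPE1-only regions depended on every count or ratio limit. With at least 20 ChIP sequences there were 2534 (61.4% of enriched regions, 73.1% of them without a U2OS entry), with at least 50 there were 94 (13.4%, 31.9%), with a ratio of at least 2 there were 1248 (40.8%), and with a ratio of at least 5 there were 120 (20.9%). The medians at these 4 settings were 581.5, 908, 785 and 633 bp in length, 5, 14, 13 and 5 IgG sequences, and, except at a ratio of at least 2, 23, 57 and 36 ChIP sequences, and the median ratio was 2.82 and 6.14 at the ratio limits of 2 and 5. A U2OS ratio of 1.5 as the bar left 350 (20.1%), a ratio of 3 gave 979 (56.2%), and any listed U2OS region left 216 (12.4%). The share was 29.6% and 22% when an enriched U2OS region within 500 bp or 5000 bp counted, 28.7% with the ratio scaled by depth, and 36.7% with the threshold of the methods, under which 62.2% had no U2OS entry. The mirrored U2OS number was 629, 10, 351 and 8 at those 4 settings.

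In the order NPAT, CASP8AP2, HINFP, the shares with another factor at a ratio of at least 3 were 14.2%, 10.1% and 5.41% in hTERT-RPE1 cells and 6.49%, 4.68% and 3.42% in U2OS cells. With a ratio of 2 and at least 30 ChIP sequences they were 3.42%, 0.721% and 0.721%, and 3.06%, 1.44% and 0.541%. With any listed region they were 41.4%, 34.2% and 16.6%, and 54.1%, 53.3% and 16.6%. Overlap of at least 50% of the shorter region gave 17.5% for CASP8AP2 and 5.59% for HINFP in hTERT-RPE1 cells, and 14.4% for NPAT and 12.2% for CASP8AP2 in U2OS cells.

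Chromosome 19 held 5.32% of regions with at least 50 ChIP sequences and 4.29% with 1 region per cluster. The window ratio around regions without a U2OS entry was 0.890 with 5 Mb windows and 0.663 with CASP8AP2, and with CASP8AP2 it was 1.5 around listed and 1.42 around both-line regions, which had 1.5 with 200 kb windows. Of 89 alternative values 22 stayed within the interval of the reported value, or within 1.5 times a reported number. At this depth the intervals of the 2 lines overlapped at 302 of the 339 listed regions.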
